A study of Mus musculus with 8 samples.

Results

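Of the 134407 chromatin accessibility peaks measured in wild-type E14 mouse embryonic stem cells, 874 were distal peaks that were strongly more accessible after pausing than in control culture. They were chosen by their measured values on chromosomes 1 to 19: the lowest of 4 paused libraries above the highest of 4 control libraries, a paused mean of at least 40 scaled reads, and a paused mean at least 2 times the control mean. The centre of each also lay more than 1 kb from both ends of every protein-coding gene in GRCm38, a condition that 115369 peaks met. Because these peaks were selected on the paused against control contrast, their levels in that contrast are given as a description with no test. Their positions, neighbours and annotation, beyond the distance to gene ends, had no part in the choice.

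Both groups were E14 cells of WT genotype, a line of embryonic stem cells, kept in medium with serum and LIF on gelatin and collected after 24 h. The paused cells received 200 nM INK128, an inhibitor of the kinase mTOR, and the controls were kept in the control condition, with 4 libraries per group from 50000 live cells each. The labels do not say whether replicates came from separate cultures, so p-values measure only the spread between these libraries, which may be technical, and all cells were of 1 line.

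ATAC-seq reads open chromatin through the Tn5 transposase, which inserts sequencing adapters where DNA is not wrapped tightly. Open sites far from gene ends include enhancers, stretches of DNA bound by transcription factors that can act on genes at a distance, and the gene they act on need not be the nearest. mTOR is a kinase that couples growth factors and nutrients to protein synthesis, and its partial inhibition places mouse embryonic stem cells in a slow, pluripotent state that resembles the diapause of the early embryo. In bulk libraries, more cells with an open site and a more open site in each cell cannot be told apart.

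Reads in peaks ranged from 4434037 to 21161767 per library, with control replicate 1 the deepest. At the gained distal peaks the median was 79 reads in that library and 15 to 54 in the other 7, and no gained peak had 0 reads in any library. All 7 stem cell marker genes had a peak within 2 kb of an end, and their summed signal was 1082 to 1167 in control and 1268 to 1426 in paused libraries. The summed signal at 4 of 5 endoderm marker genes was 364 to 442 in control and 400 to 465 in paused libraries. At 4 of 5 fibroblast marker genes it was 238 to 291 in control and 287 to 339 in paused libraries, and at all 4 trophoblast marker genes it was 74.9 to 106 and 104 to 123. Of the trophoblast genes only Tfap2a had a higher paused mean, 56.5 against 30.2 in control. Paused means were lower at Cdx2 (13.1 against 18.6), Elf5 (21.3 against 22.8) and Gata3 (19.3 against 20.5). They were also lower at Esrrb in the stem cell list and Col1a2 in the fibroblast list. The peak of Zfp42 in the stem cell list and that of Tfap2a in the trophoblast list were called higher by limma-trend, and 0 peaks of the endoderm and fibroblast lists. Over all tested peaks within 1 kb of a gene end the median log2 change was 0.17, and the sums are to be read beside it. The part of these cell types in the gained peaks was not tested.

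Sequence could be read where a gained peak fell within a promoter window of the RefSeq table for GRCm38.p6, which spans 250 bases before to 50 after a gene's start site. There were 5 such peaks, all in windows of long non-coding RNAs, which the distance rule did not cover because it used protein-coding genes. Their centres lay 10 to 207 bp from the start site, and only the peak at Gm8493 covered it. The 4 with more than a short overlap are printed 5′ to 3′ on the minus strand, the strand of each gene, with the bases inside the gained peak in capitals. Their windows are chr5:143165702-143166001 for Rbakdn, chr16:93794852-93795151 for 2310043M15Rik, chr4:152583586-152583885 for Gm30734 and chr5:109553498-109553797 for Gm8493.
Rbakdn: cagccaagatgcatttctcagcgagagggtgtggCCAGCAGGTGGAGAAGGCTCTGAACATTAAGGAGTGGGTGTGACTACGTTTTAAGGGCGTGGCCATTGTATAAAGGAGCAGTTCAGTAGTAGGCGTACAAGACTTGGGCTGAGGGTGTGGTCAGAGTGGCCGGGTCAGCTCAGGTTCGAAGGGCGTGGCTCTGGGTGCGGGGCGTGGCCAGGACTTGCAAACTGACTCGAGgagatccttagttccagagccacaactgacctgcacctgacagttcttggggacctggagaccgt
2310043M15Rik: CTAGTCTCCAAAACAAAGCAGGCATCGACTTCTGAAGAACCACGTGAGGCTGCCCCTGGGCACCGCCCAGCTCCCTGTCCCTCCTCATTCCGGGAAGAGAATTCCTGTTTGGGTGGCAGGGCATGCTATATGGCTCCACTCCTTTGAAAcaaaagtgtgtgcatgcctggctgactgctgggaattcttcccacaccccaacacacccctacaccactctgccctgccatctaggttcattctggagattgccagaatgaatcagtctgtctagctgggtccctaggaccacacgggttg
Gm30734: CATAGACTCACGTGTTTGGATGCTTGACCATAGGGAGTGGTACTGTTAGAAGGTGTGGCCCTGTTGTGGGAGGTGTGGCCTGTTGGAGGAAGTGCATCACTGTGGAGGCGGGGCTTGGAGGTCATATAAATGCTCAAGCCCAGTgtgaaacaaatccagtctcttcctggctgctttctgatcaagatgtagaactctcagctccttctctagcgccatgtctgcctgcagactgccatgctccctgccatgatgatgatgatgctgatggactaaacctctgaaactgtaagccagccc
Gm8493: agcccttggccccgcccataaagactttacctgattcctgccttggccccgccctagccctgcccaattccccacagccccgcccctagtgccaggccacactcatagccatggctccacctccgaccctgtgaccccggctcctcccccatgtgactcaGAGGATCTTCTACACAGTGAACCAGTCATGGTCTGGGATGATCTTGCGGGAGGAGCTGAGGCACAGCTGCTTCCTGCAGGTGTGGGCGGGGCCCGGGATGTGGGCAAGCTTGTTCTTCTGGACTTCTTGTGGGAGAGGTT
The peak at Rbakdn lay wholly within the window, over bases 35 to 235, with 9 CpG dinucleotides. The capitals cover 149 bases for 2310043M15Rik, 144 for Gm30734 and 140 for Gm8493, and they were 53.5 to 57.9% G or C. The median GC content of all 32851 promoter windows was 52.7%. The fifth peak shared 13 bases with the window of Gm30505 and is not printed.

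Short binding motifs were searched on both strands of the capitals. The E-box of Tfeb and Myc, CACGTG, was present at 2310043M15Rik and Gm30734, and 7.15% of all promoter windows held it. Gm30734 also held AGGTCA, a core bound by nuclear receptors that 16.3% of windows held. The GC box of Klf and Sp factors, GGGCGG, was present at 2310043M15Rik and Gm8493, against 35.7% of windows. The peak at 2310043M15Rik further held the Tead core GGAATG, found in 14.7% of windows, and the Stat motif TTCCNNGAA, found in 4.81%. The Rbakdn peak held the Runx core TGTGGT and the Zic core CAGCAGG, against 16.8 and 10.5% of windows. Of the other motifs searched, the Sox core ACAANG (41.2% of windows) was matched at Rbakdn and 2310043M15Rik, and the Klf motif CCACCC (31.5%), the Tcf core CTTTGA (16.0%) and the Ets core CCGGAA (14.9%) at 2310043M15Rik. The Smad core CAGAC (49.6%) was matched at Gm8493. No match was found to AP-1 (TGANTCA), the cAMP response element (TGACGTCA), the Oct octamer (ATGCAAAT), Esrrb (TCAAGGTC, which overlaps the nuclear receptor core), forkhead (TGTTTAC), the Smad palindrome (GTCTAGAC, which holds the Smad core), Foxh1 (AATCCACA), Gata factors (AGATAA), Nfy (CCAAT), Grhl (AACCNGTT), CTCF (AGGTGGCGC) or homeobox (TAATTA) motifs, which says only that these letters are not in the capitals. The windows are longer than the overlaps, so the shares are not matched in length, and a match is a description of the letters, not a bound site.

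At Gm8493, whose start site was 10 bp from the peak centre and which lies 1172 bp from an end of Crlf2, a cytokine receptor gene, the control libraries read 41.83, 54.94, 35.56 and 45.55 scaled reads. The paused libraries read 143.04, 113.56, 113.27 and 112.47, so that the means were 44.5 ± 8.11 and 121 ± 15.0 (SD, n = 4 each). Replicate 1 stood above the other 3 paused libraries, and every paused library was above every control library by the rule. At Rbakdn, beside the zinc finger gene Rbak, the control libraries read 43.56, 38.22, 35.56 and 47.02 and the paused libraries 93.44, 85.17, 91.54 and 77.32. At 2310043M15Rik, inside Dop1b, the means were 45.1 ± 2.30 in control and 93.8 ± 10.1 in paused libraries (SD, n = 4 each). Gm30734 had the lowest levels of these 4, with 28.3 ± 7.82 in control and 60.6 ± 12.9 in paused libraries (SD, n = 4 each).

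Across all 874 gained distal peaks the control mean had a median of 26.0 scaled reads and ranged from 10.8 to 111. The paused mean had a median of 60.01 and ranged from 40.02 to 237. The ratio of paused to control means had a median of 2.23 and reached 4.06. Most gained peaks were near the minimum ratio of 2: the quartiles of the ratio were 2.09 and 2.43, 34 peaks lay between 3 and 4, and 2 were at 4 or above. On the scale of log2(value + 1), the median change was 1.14, against 0.10 over all 127402 tested peaks and 0.19 over the 43449 other distal peaks with a paused mean of at least 40. These others are the comparison set used throughout, since they met the same minimum in paused libraries.

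**Figure D1:**
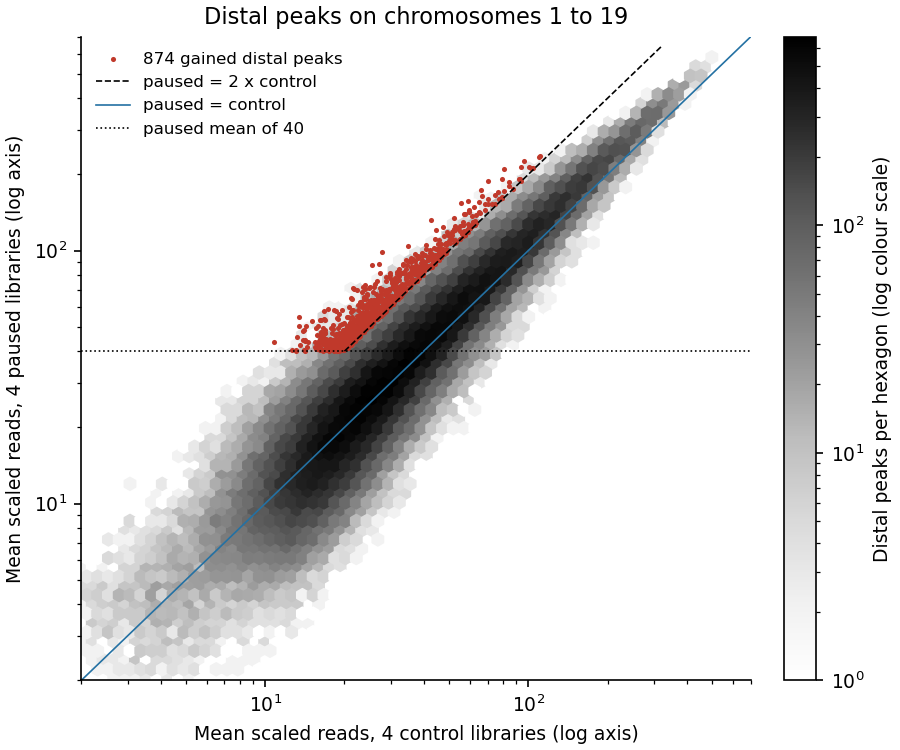
Mean scaled reads of distal peaks on chromosomes 1 to 19, with the 4 control libraries on the horizontal and the 4 paused libraries on the vertical axis, both logarithmic; hexagons are shaded by the number of distal peaks and red points are the 874 gained distal peaks. The red points lie along the line where the paused mean is 2 times the control mean, and the quartiles of their ratio are 2.09 and 2.43.

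The gained peaks were not silent in control cells. Their median control level stood at the 41.3 percentile of all peaks on chromosomes 1 to 19, gene ends included, and 297 of them were above the median control level of those peaks, 31.33 scaled reads. In paused libraries the median gained peak was at the 70.2 percentile of the same peaks. By library, the median over gained peaks was 27.31, 27.47, 25.4 and 26.45 in control and 56.52, 63.09, 57.41 and 63.26 in paused replicates 1 to 4. Paused replicates 1 and 3 were lower than 2 and 4, and paused replicate 1 was the lowest paused library at 348 gained peaks. The comparison set had medians of 62.11 to 66.13 in control and 70.37 to 72.93 in paused libraries. The median coefficient of variation was 18.8% in control and 16.2% in paused libraries for gained peaks, and 13.4 and 13.7% for the comparison set.

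**Figure D2:**
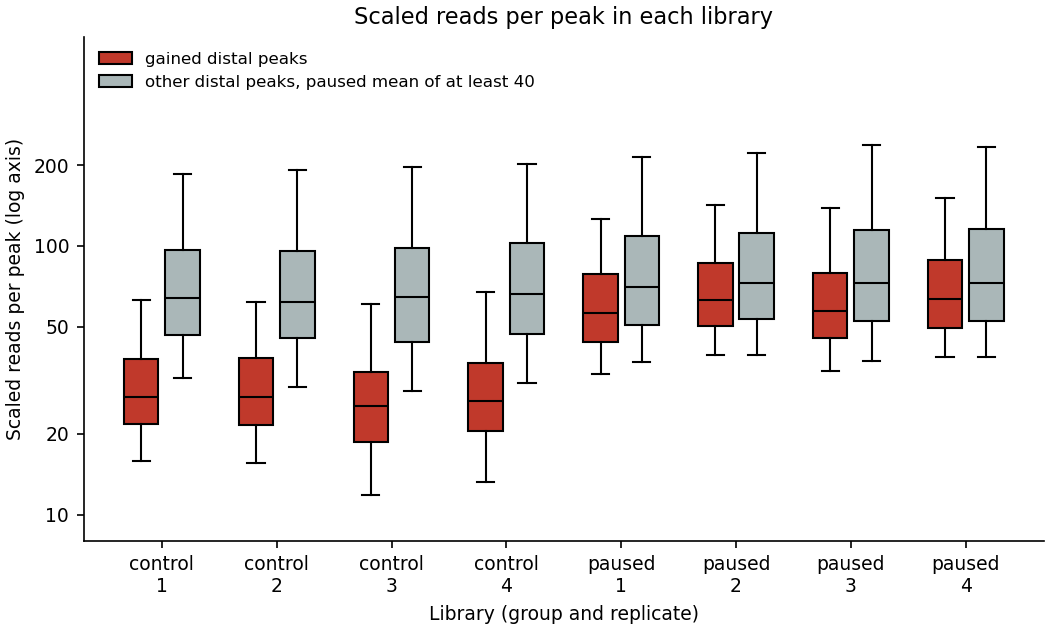
Scaled reads per peak (logarithmic axis) in each of the 8 libraries, for the 874 gained distal peaks (red) and the 43449 other distal peaks with a paused mean of at least 40 (grey); boxes show the median and quartiles and whiskers the 5th to 95th percentiles. Gained peaks had medians of 25.4 to 27.47 in control and 56.52 to 63.26 in paused libraries, below the grey medians in both groups.

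In limma-trend, fitted over all tested peaks, 11.0% were called higher in paused cells at an adjusted p under 0.05, and all 874 gained peaks were among them. In the authors' deposited table an FDR under 0.05 was given for 873 gained peaks, and 282 of them had a log2 fold of at least 1. Over all peaks of the authors' deposited table, 9.19% had such an FDR together with a higher paused value. Over all tested peaks limma-trend called 13958 higher and 3702 lower, and edgeR with TMM scaling 8548 and 6853. Since the same contrast chose the peaks, nothing is read from these counts. By the mirrored rule 105 distal peaks were lost in paused cells. That imbalance depended on the scaling: with recovered reads scaled by TMM, 524 distal peaks were gained and 218 lost, and with scaling to total reads in peaks 389 were gained and 308 lost. Loess correction of each library on peak strength gave 453 and 228, and every peak gained under these 3 scalings was among the 874. The median change of all tested peaks was 0.10 with the deposited scaling, 0.00 with TMM, -0.05 with total reads and -0.01 after loess correction, so that changes are to be read relative to it.

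The rule was also applied to 7 libraries at a time, and the left-out library was then read at the peaks so chosen. The 7 libraries chose 810 to 1104 peaks. The left-out library was clear of all 4 libraries of the other group at 94.3 to 98.4% of them, where the same library was clear of the other group at 42.9 to 52.7% of all distal peaks with a paused mean of at least 40. The other group had taken part in the choice. The median ratio with the left-out library in place of its group was 1.92 to 2.252, against 2.21 to 2.23 in the libraries that chose. The lowest ratios came from paused replicates 1 and 3, which lay on the paused side of the midpoint between the group means at 80.8 and 79.1% of the chosen peaks, while each of the other 6 libraries lay on its own group's side at 92.1% or more.

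The largest change was at a peak 73024 bp from an end of Snrpe, which encodes a core protein of the spliceosome (chr1:133530747-133530947). This peak lay 537 bp from an end of the pseudogene Gm8596. Its control libraries read 18.32, 17.92, 10.16 and 7.35 scaled reads and its paused libraries 49.6, 55.2, 57.41 and 56.24. The means were 13.4 ± 5.53 and 54.6 ± 3.46 (SD, n = 4 each), a log2 change of 2.03. The paused libraries were close together and the controls differed among themselves by over 2 times. Control replicates 3 and 4 were the lowest, and in these libraries gained peaks went down to 4 reads. Counting error at so few reads was not separated from this spread. A peak 42755 bp from Cntn5, a neural adhesion gene, read 6.91, 8.36, 11.85 and 16.16 in control and 43.84, 55.2, 40.34 and 35.15 in paused libraries, a log2 change of 1.96 (chr9:9591368-9591568). Beside Fam189a2, at 3949 bp, the change was 1.89 (chr19:23968701-23968901). Here control libraries read 9.68, 9.55, 15.24 and 19.1 and paused libraries 48.45, 44.16, 57.41 and 51.55. Both peaks were weak in control cells, near the lowest control mean of the set.

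The fourth largest change was at a stronger peak, 32793 bp from Mbnl2, a regulator of alternative splicing (chr14:120242759-120242959). It read 31.46, 26.28, 35.56 and 17.63 in control and 89.98, 94.64, 105.51 and 103.1 in paused libraries, a log2 change of 1.83. The next 5 all lay inside genes. Csmd2, a very long gene for a transmembrane protein, held a peak with 25.4 ± 9.43 in control and 87.7 ± 10.3 in paused libraries (SD, n = 4 each). That peak lay 47 bp from an end of the long non-coding RNA gene Csmd2os. Ctif, a factor in translation initiation, held a peak with 15.1 ± 5.26 and 52.7 ± 1.80 (SD, n = 4 each). Npas2, a transcription factor of the circadian clock, held one with 14.3 ± 2.15 and 50.5 ± 8.31 (SD, n = 4 each). Of these 3 peaks, that in Csmd2 was the strongest in both groups. Macroh2a2, a histone variant gene, held a peak with means of 27.1 ± 9.75 and 88.8 ± 9.64 (SD, n = 4 each), and Chst11, a chondroitin sulfotransferase gene, one with 16.8 ± 2.73 and 57.7 ± 7.52 (SD, n = 4 each). The tenth, 35348 bp from Ankrd50, had a log2 change of 1.72.

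The 5 gained peaks with the highest paused means had smaller changes, of 1.07 to 1.22. The highest lay 29519 bp from St6galnac2, a sialyltransferase gene, and read 117.88, 100.32, 88.05 and 138.13 in control and 196.11, 258.67, 214.12 and 278.83 in paused libraries (chr11:116725201-116725401). A peak 3879 bp from Rad51b, a gene of homologous recombination repair, read 113.39, 107.49, 110.06 and 107.27 in control and 237.63, 246.05, 212.57 and 241.34 in paused libraries (chr12:79852039-79852239). The control libraries of the second peak were nearly equal, while those near St6galnac2 spanned 88.05 to 138.13. The others were near Gem, a small GTPase gene, with 96.2 ± 5.77 and 227 ± 28.9, and inside Acss1, which encodes a mitochondrial acetyl-CoA synthetase, with 94.2 ± 10.8 and 214 ± 29.5 (SD, n = 4 each). The fifth, 38899 bp from the heparan sulfate endosulfatase gene Sulf2, had 101 ± 9.65 and 214 ± 28.3 (SD, n = 4 each). It lay 159 bp from an end of the long non-coding RNA gene Gm30536.

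**Figure D3:**
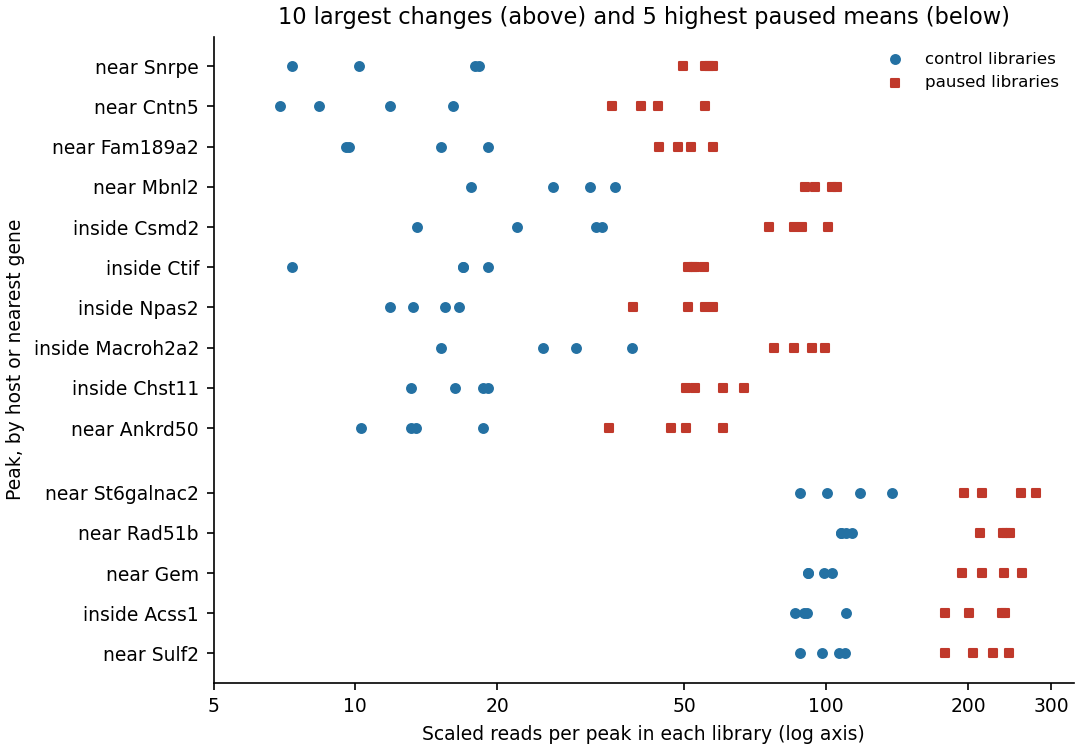
Scaled reads in each library (logarithmic axis) at the 10 gained distal peaks with the largest log2 change (upper block) and the 5 with the highest paused mean (lower block), each named by the gene it lies in or is nearest to. Blue circles are the 4 control and red squares the 4 paused libraries; the upper block has paused means of 43.6 to 98.3 and the lower block of 214 to 237.

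The gained peaks lay farther from protein-coding genes than the comparison set. Their median distance to the nearest gene end was 38054 bp, against 17313 bp for the comparison set and 15669 bp for the 105 lost distal peaks. Of the gained peaks 220 (25.2%) were more than 100 kb from every gene end, against 12.9% of the comparison set. Of the gained peaks 331 (37.9%) lay inside a protein-coding gene, against 51.1% of the comparison set and 52.0% of all distal peaks; 50 of the 105 lost peaks (47.6%) did. No test was made of these shares, since peaks are not replicates. The nearest lay 1055 bp from an end of Cabp2 and the farthest 1607824 bp from Cntnap5a. The next farthest were 1597955 bp from Zeb2, a transcription factor of the epithelial to mesenchymal transition, and 1554802 bp from the protocadherin gene Pcdh9.

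The frequency of gained peaks was higher in each farther bin of distance. Of distal peaks with a paused mean of at least 40, 1.09 per 100 met the rule at 1 to 5 kb from a gene end, 1.38 at 5 to 10 kb and 1.80 at 10 to 50 kb. It was 2.79 per 100 at 50 to 100 kb, 3.64 at 100 to 500 kb and 4.71 beyond 500 kb, where 33 gained peaks lay. Among peaks within 1 kb of a gene end with that paused mean, 22 of 12312 (0.179%) met the same value conditions. Over the same bins the median log2 change of the other distal peaks went from 0.16 to 0.30. limma-trend called 16.2% of all these distal peaks, gained peaks included, higher at 1 to 5 kb and 36.9% beyond 500 kb. In all 14 alternative fits the share was larger beyond 500 kb than at 1 to 5 kb, by 2.06 to 3.62 times. A minimum paused mean favours peaks that are higher in paused cells. The median change was 0.19 in the other distal peaks and 0.07 over all distal peaks. The change by distance was not read without that minimum, so the increase is described only under it.

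**Figure D4:**
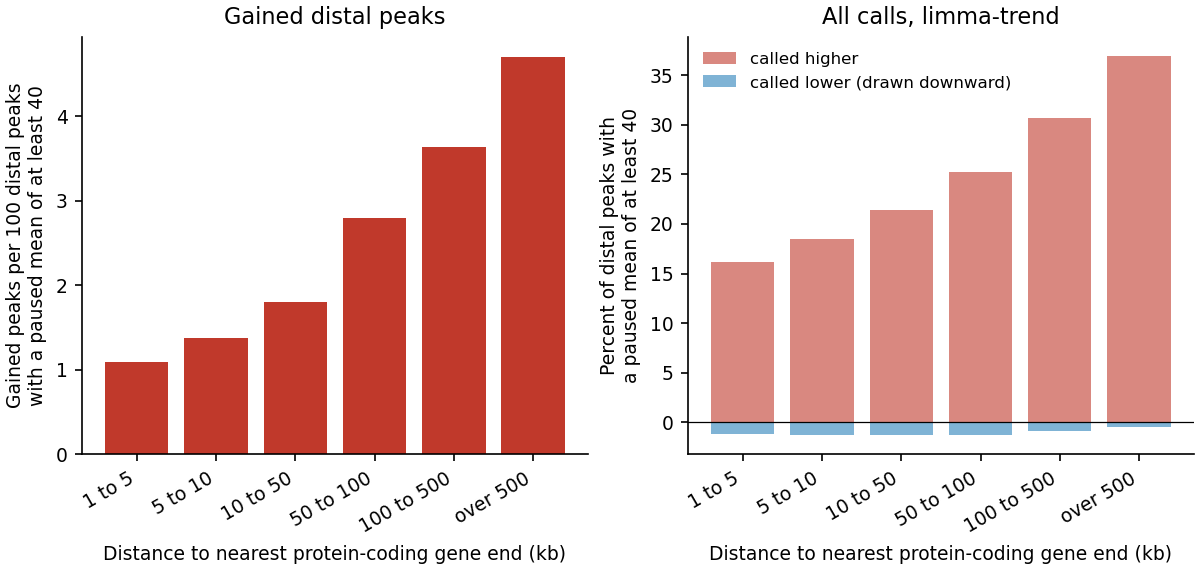
Left, gained distal peaks per 100 distal peaks with a paused mean of at least 40, by distance to the nearest protein-coding gene end in kb. Right, the percent of the same distal peaks called higher (upward) or lower (downward) by limma-trend at an adjusted p under 0.05; both the gained peaks, from 1.09 to 4.71 per 100, and the calls, from 16.2 to 36.9%, were more frequent in each farther bin.

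The increase with distance was present at each peak strength. Among distal peaks with a paused mean of 40 to 60, 1.79% within 10 kb of a gene end and 4.80% beyond 100 kb were gained. At a paused mean of 60 to 100 these shares were 1.31 and 3.92%, and above 100 they were 0.593 and 1.67%, the latter from 23 gained peaks. Inside and outside genes were also compared at larger distances only. Beyond 10 kb from any gene end, 1.86% of distal peaks inside a gene and 2.87% of those outside were gained. Gained peaks also had fewer peaks around them, with a median of 7 other peaks within 50 kb against 10, and 5042.5 bp to the next peak against 3991 bp.

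The 331 gained peaks inside protein-coding genes fell in 314 genes. Their host genes were long, with a median length of 140973 bp against 83417 bp for the comparison set, and 31 of them (9.37%) lay in genes over 500 kb, against 6.71%. For 240 of them the gene's strand was known. When each gene was cut into 4 equal stretches from its start to its end, these held 21.3, 29.6, 25.4 and 23.8% of the gained peaks, against 24.8 to 25.6% of the comparison set. In 312 cases the host was also the gene with the nearest end. Exons and introns were not analysed here.

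No gene held 3 or more gained peaks, and 17 held 2. Among them were the adhesion and guidance genes Cdh13, Ephb2 and Megf11, the transcription factor genes Tshz2 and Npas2, and the cytoskeletal linkers Ank3 and Shroom3. Others were Anapc7, a subunit of the anaphase-promoting complex, Ncaph, a condensin subunit, Pde3a, a phosphodiesterase, Gfpt2, an enzyme of hexosamine synthesis, Csmd2, Clec16a, Muc4, Ripor2 and Spock1. The pair inside Pde3a had 33.5 ± 1.746 and 16.9 ± 7.65 in control and 88.7 ± 17.5 and 47.4 ± 3.83 in paused libraries (SD, n = 4 each). The pair inside Ank3 read 14.52, 17.92, 13.55 and 19.1 at one peak in control and 26.53, 48.9, 48.1 and 66.78 in paused libraries, and 25.24, 32.25, 22.01 and 23.51 against 61.14, 75.71, 65.17 and 71.47 at the other. At both Ank3 peaks paused replicate 1 was the lowest paused library.

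Outside protein-coding genes lay 543 gained peaks, of which 91 were inside a non-coding gene. Thus 452 (51.7%) were outside every gene of the annotation, against 39.1% of the comparison set. Within 1 kb of an end of a non-coding gene lay 37 gained peaks (4.23%, against 7.64%), 29 of them at long non-coding RNAs and 8 at pseudogenes. Of the 838 gained peaks on chromosomes for which start sites were at hand, 16 (1.91%, against 6.81%) were within 1 kb of an annotated start site. The nearest hairpin of a microRNA was Mir6901, 1202 bp from a gained peak near Sned1.

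Gained peaks were found on every chromosome from 1 to 19. Their share of distal peaks with a paused mean of at least 40 ran from 1.21% on chromosome 11 (39 peaks) to 2.66% on chromosome 1 (80 peaks). Most stood alone. The median distance from a gained peak to the next was 678140 bp, against 760682 bp from a peak of the comparison set to a gained peak. Within 50 kb, 79 gained peaks (9.04%) had another, and 5.52% of the comparison set had a gained peak. At shorter range, 12 gained peaks (1.37%) had another within 2 kb, where 0.0898% of the comparison set did. At 500 kb the shares were 354 gained peaks, or 40.5%, and 38.1%.

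Joining gained peaks less than 50 kb apart gave 38 pairs and 1 run of 3. The run of 3 spanned 7349 bp near Map10, a gene for a microtubule-associated protein (chr8:125693333-125700681), with no other peak between its members. From left to right its control means were 68.3 ± 20.7, 53.03 ± 8.80 and 34.4 ± 9.75, and its paused means 153 ± 9.81, 123 ± 8.27 and 84.3 ± 12.5 (SD, n = 4 each). The log2 changes of the 3 were 1.19, 1.21 and 1.29. The tightest pair spanned 1024 bp and lay far from genes, 675930 to 676753 bp from Trib2, a pseudokinase gene (chr12:15114872-15115895). Its log2 changes were 1.09 and 1.48. The weaker of these changes came from 29.73, 34.64, 13.55 and 30.86 in control and 51.91, 55.2, 49.65 and 69.12 in paused libraries, and the stronger from 28.35, 28.66, 18.63 and 30.86 against 79.6, 88.33, 76.03 and 58.58. Control replicate 3 was the lowest library at both. The third run was a pair with the protocadherin gene Pcdh17 as nearest gene, at least 135986 bp away. It had control means of 25.2 ± 5.16 and 48.8 ± 7.91 and paused means of 63.5 ± 8.09 and 99.6 ± 21.0 (SD, n = 4 each).

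By nearest gene, the gained peaks were assigned to 785 protein-coding genes, of which 705 had 1 gained peak, 72 had 2 and 8 had 3 or more. Those 8 were chosen for naming after their values were seen. Cops8, a subunit of the COP9 signalosome, had 4, all on one side of it, at 74737 to 178464 bp. The strongest of these had 81.1 ± 6.11 in control and 211 ± 29.3 in paused libraries, and the one with the largest change 16.3 ± 5.26 and 53.3 ± 24.6 (SD, n = 4 each). Epm2a, Lingo2, Map10, Nphp4, Pcdh17, Plekhb2 and Tshz2 had 3 each. For Lingo2, a neuronal membrane gene, 1 was inside it and the others were 218416 and 1098457 bp away, so that a shared nearest gene did not always mean a tight group.

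Peaks close to a gained peak had larger median changes than those farther away. Among tested peaks outside the set, 135 lay within 2 kb of a gained peak, and their median log2 change was 0.36. It was 0.21 for 1101 peaks at 2 to 10 kb, 0.14 for 5050 at 10 to 50 kb, 0.11 for 15882 at 50 to 200 kb and 0.09 for 101711 farther away. The fall lay mainly in distal peaks, from 0.38 within 2 kb to 0.07 beyond 200 kb. Gene end peaks went from 0.19, with 8 peaks within 2 kb, to 0.17. Of the 135 nearest, 35 (25.9%) were called higher and 0 lower, where 10.3% of all tested peaks outside the set were called higher. Whether reads of fragments that span both peaks add to this was not tested.

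**Figure D5:**
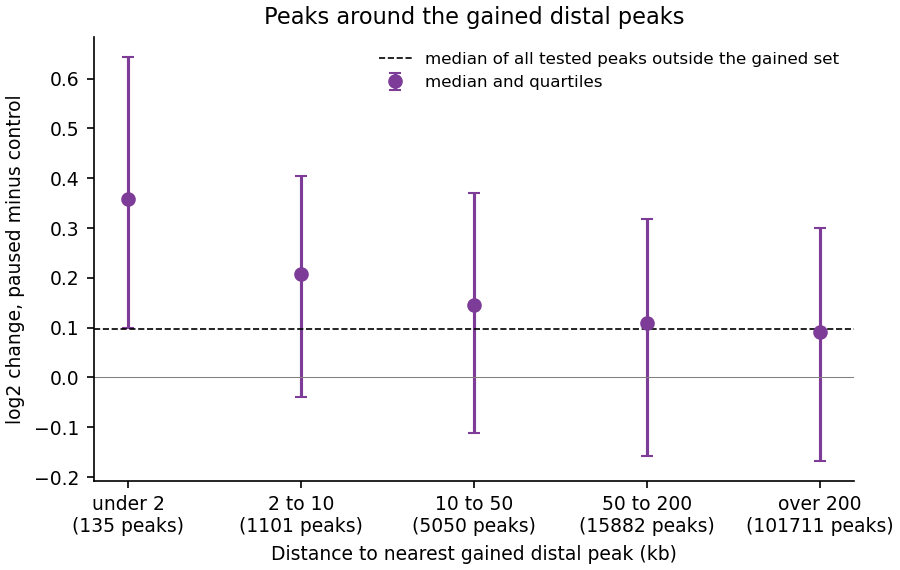
Median log2 change, paused minus control on the log2(value + 1) scale, of tested peaks outside the gained set by their distance in kb to the nearest gained distal peak; bars are quartiles and the dashed line is the median of all these peaks. The median falls from 0.36 within 2 kb to 0.09 beyond 200 kb.

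Ends of genes that hold or neighbour a gained peak were close to other gene ends in their median change. The 294 tested peaks within 1 kb of an end of a gene that holds a gained peak had a median log2 change of 0.19, and 37 (12.6%) were called higher and 5 lower. For ends of the genes nearest to a gained peak the median was 0.18, with 79 of 713 (11.1%) called higher and 8 lower. All 15662 gene end peaks had a median of 0.17, with 10.5% called higher.

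Few gained peaks lay in or near genes of the lists drawn up for stem cell states, signalling and lineages, counted by host gene or nearest gene within 100 kb. No nearest gene was counted for peaks beyond 100 kb, which were 25.2% of gained peaks and 12.9% of the comparison set. The shares are not matched for this difference. The naive pluripotency list had 1 (0.114% of gained peaks, against 0.423% of the comparison set), 1792 bp from Esrrb, an orphan nuclear receptor of naive cells. Its control libraries read 23.51, 25.08, 30.48 and 19.1 and its paused libraries 54.22, 44.16, 49.65 and 56.24. The lists of formative and primed genes, of lysosome and autophagy genes and of neural genes had 0, where the comparison set had 0.251, 0.163 and 0.297%. The list of mTOR, insulin and Foxo genes had 1 (0.114%, against 0.341%), near Pdk1, the symbol of a pyruvate dehydrogenase kinase, with 23.1 ± 4.32 in control and 47.2 ± 12.6 in paused libraries (SD, n = 4 each).

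The Nodal and Smad list had 4 (0.458%, against 0.281%): near the signal transducer Smad2, inside the Smad corepressor gene Ski, near the receptor gene Acvr1b and near the ligand gene Bmp4. The first, 31328 bp from Smad2, had 30.7 ± 5.06 in control and 72.0 ± 11.5 in paused libraries (SD, n = 4 each). Near the immediate early genes Jun and Dusp1 lay 1 each (0.229%, against 0.221% for that list). The peak 56774 bp from Jun read 14.86, 17.92, 16.93 and 14.69 in control and 44.99, 44.16, 43.44 and 29.29 in paused libraries, and paused replicate 4 was apart from the other 3. Hippo and Tead genes had 2 (0.229%, against 0.278%), both at Amotl2, a regulator of Yap. The list of Wnt and Tcf genes had 1 (0.114%, against 0.327%), inside the ligand gene Wnt3. Wnt ligand genes outside that list also had gained peaks, with 1 inside Wnt3a, 1 inside Wnt6 and 1 nearest to Wnt11, at 45844 bp. These genes were named after their gained peaks were seen. No share of the comparison set was counted for them, so nothing is read from their number. The list of Pparg and lipid genes had 2 (0.229%, against 0.230%), near Fabp3 and Cebpb, the first of them inside the gene Zcchc17.

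Of the lineage lists, that of fibroblast genes had 4 (0.458%, against 0.0736%), the widest gap in share among the 14 lists. They were a pair near the fibrillar collagen gene Col5a2, 1 inside Col5a1 and 1 near the transcription factor gene Twist2. The Col5a2 peak with the larger change, 87385 bp from the gene, read 19.7, 26.28, 32.17 and 26.45 in control and 51.91, 52.05, 68.27 and 64.44 in paused libraries. The other 32 peaks of this list in the comparison set had a median log2 change of 0.34. The mesoderm list had 3 (0.343%, against 0.177%), the strongest inside Kdr, a receptor of vascular endothelial growth factor, with 49.1 ± 6.08 and 118 ± 12.8 (SD, n = 4 each), and the others near Nkx2-5 and Snai2. The endoderm list had 2 (0.229%, against 0.196%), inside Col4a1 and near Foxa1, and the trophoblast list 1 (0.114%, against 0.193%), near Plet1. Fibroblast marker genes had a summed signal of 238 to 291 in control and 287 to 339 in paused libraries. Their log2 changes were -0.16 at Col1a2, 0.19 at Thy1 and 0.48 at Col1a1 and Twist2, with 0 called. All gene end peaks had a median of 0.17. The part of fibroblasts in the gained peaks was not tested. Each list rests on at most 4 gained peaks, and the shares were not tested.

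The thresholds of the rule cut through a continuous range. Just inside the ratio of 2 were peaks near Olfm3, Coq5 and Tomm7, at 2.0003 to 2.0007, and just outside it peaks near Rubcnl, Slco2a1 and Ets1, at 1.9985 to 1.9994. At the minimum of 40, peaks near Syde2, Chchd6 and Snx16 had paused means of 40.02 to 40.08 and peaks near Gne, Mzt1 and Defb41 of 39.92 to 39.98. On distance, the nearest inside were peaks near Cabp2, Ubr2 and Wnt3, at 1055 to 1127 bp, and the nearest outside peaks near Rhov, Cd70 and Pdrg1, at 843 to 876 bp. The lowest paused library exceeded the highest control library by 0.05 to 0.10 near Muc20, Myo3b and St6gal2, and fell short by 0.11 to 0.29 near Gm13090, Wac and Rae1. Another 9470 distal peaks met the conditions on overlap and paused mean with a ratio under 2, and 25 failed on overlap alone.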

How the data were processed

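The 4 control and 4 paused ATAC-seq libraries were grouped by their titles. Per the submitters' processing notes, FastQC, Trim Galore, Bowtie2 2.4.1, MACS3 3.0.3 and DiffBind 3.16.0 were used with build mm10; the handling of the Tn5 offset is not given in the sources used here. The deposited table holds 1 peak set of fixed width shared by all libraries. The per-library signal deposited by the authors is reads per peak divided by 1 factor per library, called scaled reads here: 100% of the values were whole multiples of 1 step within 0.0052. The log2 fold, p-value and FDR columns deposited by the authors were used only where their table is named.

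The 874 peaks and all lists were chosen with earlier results of these data known. limma-trend (limma 3.58.1, R 4.3.3) was fitted without covariates on log2(value + 1) over the 127402 peaks with a mean of at least 10, with Benjamini-Hochberg adjustment over all of them and a threshold of 0.05. On the recovered reads, edgeR 4.0.16 (quasi-likelihood, TMM) called 8548 peaks higher and 6853 lower, and DESeq2 1.42.0 was a further alternative. Fits were tested on simulated data. Genes were 21887 protein-coding and 28056 other genes of RefSeq on GRCm38.p6; without strand for all of them, distance was taken to the nearer end. Start sites, which were at hand for 17492 protein-coding genes and none on chromosome 18, and sequences came from the RefSeq promoter table. Base composition and motifs of the other gained peaks were not analysed here.

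A value of 0 reads would allow up to 3 reads, a value of 1.04 to 5.08 by library; floors cover counting error only. Named peaks were the 10 largest changes, the 5 highest paused means, the 3 largest runs, genes with the most gained peaks inside (17 tied at 2, of which 1 is not reported here), the largest change in each gene list and the peaks at each threshold. The planned sequences of named peaks were replaced by the promoter windows. Scaling, thresholds, pseudocount, filter, test and single libraries were varied.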

Additional observations from a re-analysis of the deposited data

Results flagged for a closer look

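In the 136 groups of 4 values behind the 68 named gained peaks, 6 had 1 library far from the other 3, measured as its gap to the nearest value over the whole range of the group. Chance gives about 1 in 20 such groups, and no explanation was tested. Near Crlf2, at the start site of Gm8493, paused replicate 1 read 143.04 scaled reads, a gap of 0.964 of the range. Inside Cdh13 paused replicate 3 was low at 41.89 (0.972), and near Jun paused replicate 4 was low at 29.29 (0.901). Among controls, replicate 2 was high near Map10 at 48.97 (0.897). Control replicate 3 was low inside Shroom3 at 28.79 (0.921) and high inside Clec16a at 62.65 (0.933). In each of these 6 cases every paused library was still above every control library, as the rule requires.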

How the results depend on the processing

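The number of gained distal peaks was 524 with TMM, 389 with total reads and 453 after loess correction. It was 2054 with a lower minimum ratio and 166 with a minimum of 2.5, 1611 with a paused mean of at least 20 and 236 with at least 80. Without 1 library it was 810 to 1104. The share inside a protein-coding gene was 48.3% with genes of every class, and between 36.1 and 40.7% otherwise. The share with another gained peak within 50 kb was 6.68% (TMM), 4.88% (total reads), 6.62% (loess), 17.1% (lower ratio), 2.41% (ratio of 2.5), 16.7% (mean of 20), 3.81% (mean of 80) and 6.91 to 12.05% without 1 library, largest without paused replicate 1. It was 4.00% within 10 kb and 12.8% within 100 kb. The median log2 change was 0.96 with the lower ratio, 1.41 with 2.5 and 1.04 with a pseudocount of 5. The minimum ratio and the pseudocount enter the median change by definition, and the window enters the share with a neighbour. The comparison set was not recounted for the changed gained sets. Their shares are therefore not to be set against its 5.52% under the main rule. The cause of the other moves was not tested.

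Calls over all peaks, 13958 higher and 3702 lower, were 8548 and 6853 with edgeR, 4031 and 1831 with DESeq2, and 6476 higher after loess correction; the cause was not tested. Without 1 library they were 8963 to 12696 higher, lowest without paused replicate 4, and 2301 to 3893 lower, falling by over 1.5 times without control replicate 1, 3 or 4. With a replicate block they were 17371 and 4623, and 874 gained peaks were called. The numbers were not taken as pairing in the main fit. Same-numbered libraries had correlated deviations of 0.0790, 0.0358, 0.133 and 0.0395. Paused replicate 2 correlated best with control replicate 1 (0.0617), and control replicate 2 with paused replicate 1 (0.0703). Libraries of the other numbers correlated best with their own number. Whether the numbers mark pairs was not settled by these values. DESeq2 called 864 of the 874 gained peaks and each of the other 13 fits all of them, where the main fit called 11.0% of all tested peaks higher. None of 952 alternative fits of the 68 named peaks reversed or lost the call. The same contrast in the same libraries had chosen these peaks, so nothing is read from these counts.

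Beyond 500 kb against 1 to 5 kb, gained peaks per 100 were 2.41 and 0.641 (TMM), 2.02 and 0.487 (total reads), and 2.00 and 0.578 (loess). Depth limits weak controls: at the median gained peak of 15 reads, in control replicate 3, counting error alone is 0.37 on the log2 scale. The alternatives for distance, for the mirrored rule and for single named peaks were chosen after seeing the data.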
